A study of Mus musculus with 16 samples.

Results

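The cell cycle and DNA replication genes described here were a fixed list of 44 genes, from G1 cyclins to mitotic kinesins, named without a threshold on any measured value but with earlier results of these data known. Of these, 43 were measured among 19938 genes of the table, each by its brightest probe set; Ccnb1 was not analysed here. Expression was measured in cultured mouse embryonic fibroblasts (MEFs) on 16 Affymetrix Mouse Gene 1.0 ST arrays. SIMPL, the product of Irak1bp1, is a coactivator of the NF-κB subunit p65, and the study asked which TNFα-induced genes depend on it.

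There were 4 groups of 4 arrays, and all MEFs were labelled as proliferating and as of a C57Bl/6 x 129Sv background. The littermate control MEFs (genotype label WT) were untreated or treated with recombinant human TNFα at 10 ng/ml, and the SIMPL-/- MEFs (genotype label IRAK1BP1 KO) were untreated or treated in the same way. The treatment lasted 45 min by the labels and 1 h by the methods of the study. The methods describe MEFs made from single embryos on 4 separate occasions per strain, but nothing ties an array to an embryo, so the p-values measure only the spread between arrays, which may be technical. The 4 numbers of a group are names and carry no order.

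Cells that divide pass from G1, where cyclin D and cyclin E kinases release E2F factors from Rb proteins, into S phase, where licensed origins fire and nucleotides are made, and then through G2 into mitosis. E2F factors drive many of the S phase genes. Many mitotic genes are repressed in resting cells by the DREAM complex and switched on late by MYB and FOXM1, through promoter elements named CHR and CCAAT box. The mRNA levels of such genes therefore rise and fall with the share of cells in each phase, so they are widely used as a measure of proliferation. In these bulk samples a change in the share of cycling cells and a change in the RNA per cell cannot be told apart, nor can fewer cells of a type and less RNA per cell.

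The values are log2 RMA values, so a difference of 1 is a doubling of the signal, and levels of different genes are not comparable on this scale. As a check for dim probe sets, all 43 genes lay above the median of all genes (7.06), with group means from 7.17 to 13.03. The median SD of the members between arrays of 1 group ran from 0.0594 to 0.0942 (log2), and precision is limited by there being 4 arrays a group. A gene was called when limma's moderated test gave a Benjamini-Hochberg adjusted p under 0.05 over all 19938 genes, and every adjusted p below is of that kind. Irak1bp1, the targeted gene, had log2 values of 8.19, 8.21, 7.85 and 8.12 in untreated littermate MEFs and 5.32, 5.16, 5.62 and 5.35 in untreated SIMPL-/- MEFs. It was 6.64-fold lower in the latter (adjusted p = 2.15e-12), and the arrays of the genotypes did not overlap.

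Proximal promoters are shown for 6 genes on which the results below turn. Rrm2, Cdc6, Cdc20 and Plk1 were higher in SIMPL-/- MEFs in both comparisons of the genotypes, Mki67 was lower, and Ccne1 had the smallest adjusted p of the members when the responses of the genotypes to TNFα were compared. Each sequence is the 250 bases before the gene's start in RefSeq (build GRCm38.p6), written along the gene's strand, with capitals for the letters of a searched motif in either orientation. The motifs were the CHR element (TTTGAA), the CCAAT box (CCAAT) and E2F sites (TTCCCGC, with the variants TTGGCGC and then TTGCCGC and also TTCGCGC), none of which overlap in these windows.
Rrm2 (chr12:24708004-24708253, plus strand): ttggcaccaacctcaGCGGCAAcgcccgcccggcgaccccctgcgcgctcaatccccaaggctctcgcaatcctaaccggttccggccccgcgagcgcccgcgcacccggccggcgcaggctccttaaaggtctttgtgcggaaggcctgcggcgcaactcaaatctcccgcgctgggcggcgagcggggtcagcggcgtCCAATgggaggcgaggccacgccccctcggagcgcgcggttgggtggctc
Cdc6 (chr11:98907901-98908150, plus strand): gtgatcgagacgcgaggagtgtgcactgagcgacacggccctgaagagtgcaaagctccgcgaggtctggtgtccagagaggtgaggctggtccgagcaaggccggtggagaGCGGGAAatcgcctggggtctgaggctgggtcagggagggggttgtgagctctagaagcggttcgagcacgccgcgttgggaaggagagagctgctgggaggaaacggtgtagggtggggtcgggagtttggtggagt
Cdc20 (chr4:118437344-118437593, minus strand): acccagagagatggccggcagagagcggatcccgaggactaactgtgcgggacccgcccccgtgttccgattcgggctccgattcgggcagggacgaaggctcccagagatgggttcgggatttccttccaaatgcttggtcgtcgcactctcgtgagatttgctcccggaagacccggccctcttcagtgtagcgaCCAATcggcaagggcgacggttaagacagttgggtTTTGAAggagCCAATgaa
Plk1 (chr7:122159185-122159434, plus strand): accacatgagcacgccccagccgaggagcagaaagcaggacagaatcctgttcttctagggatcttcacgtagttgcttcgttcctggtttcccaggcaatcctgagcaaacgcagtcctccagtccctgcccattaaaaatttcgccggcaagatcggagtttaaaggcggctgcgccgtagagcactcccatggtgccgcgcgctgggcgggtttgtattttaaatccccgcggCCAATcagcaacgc
Ccne1 (chr7:38107491-38107740, minus strand): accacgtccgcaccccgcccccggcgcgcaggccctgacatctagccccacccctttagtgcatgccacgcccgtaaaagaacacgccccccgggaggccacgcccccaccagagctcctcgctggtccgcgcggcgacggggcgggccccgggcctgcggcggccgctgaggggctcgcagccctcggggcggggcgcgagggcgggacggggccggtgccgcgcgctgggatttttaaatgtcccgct
Mki67 (chr7:135716380-135716629, minus strand): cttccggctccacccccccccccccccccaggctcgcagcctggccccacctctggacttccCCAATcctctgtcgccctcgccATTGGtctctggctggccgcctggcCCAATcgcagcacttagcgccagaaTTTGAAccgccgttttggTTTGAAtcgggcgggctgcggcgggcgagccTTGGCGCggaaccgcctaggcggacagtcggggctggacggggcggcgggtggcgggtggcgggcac

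The promoter of Rrm2, a subunit of the enzyme that makes deoxynucleotides, held an E2F match 235 bases and a CCAAT box 50 bases before the start. That of Cdc6, the origin loader, held 1 E2F match, 138 bases before the start. The mitotic gene Cdc20 had a CHR element 18 bases before the start between CCAAT boxes at 53 and 8 bases, and no E2F match. Plk1 had a CCAAT box 14 bases before the start and a CHR element 31 bases after it, outside the printed part. Mki67, which was lower, held the fullest set of these 6, with 2 CHR elements, 3 CCAAT boxes and 1 E2F match. Ccne1 held none of the searched letters, which says nothing of the factors that bind there.

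Over the 33 members with a promoter in the table, the CHR letters stood within 250 bases before and 50 bases after the start in 39.4%, the CCAAT box in 69.7% and an E2F match in 33.3%. The shares over the 27025 genes with a promoter were 18.1%, 37.9% and 9.69%. Among the 12 of these members that were higher in SIMPL-/- MEFs in both comparisons the shares were 41.7%, 66.7% and 41.7%, and among the other 21 they were 38.1%, 71.4% and 28.6%. A match is a description of the letters and not a binding site.

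In untreated MEFs, 17 of the 43 genes were higher in SIMPL-/- than in littermate cells and 5 were lower, where 23.3% of all genes tested were called higher and 17.6% lower. After TNFα, 20 were higher and 3 lower, where 17.8% of all genes were called higher and 18.4% lower. The genotypes thus differed in a large part of the whole table, and the members' share of higher calls has to be read against that. The same holds for the counts by role and by list below. The median log2 difference of the members was 0.12 without and 0.14 with TNFα, against 0.07 and 0.03 over all genes. Of the 43 estimates 34 and 29 were above 0, as were 12685 and 11317 of the 19938 over all genes. After centring of the arrays the counts of higher and lower members were 19 and 4 without and 26 and 0 with TNFα. After quantile normalization they were 21 and 3, and 23 and 1. Centring also raised the median difference over all genes, by 0.0409 without and 0.0711 with TNFα. Quantile normalization moved it by −0.0411 and 0.000696. The shares of all genes called under these 2 alternatives were not counted, so these counts are not read as a result about the members. Differences were small for most genes, and 3 members exceeded 1.5-fold in each comparison. Of the 43 genes 15 were called higher in both comparisons and 3 lower in both, while 16 were called in neither. The comparisons use different arrays but share 1 estimate of the spread. Treated and untreated arrays may come from the same embryos, so calls in both are not independent evidence. The share of all genes called in both was not counted.

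**Figure D1:**
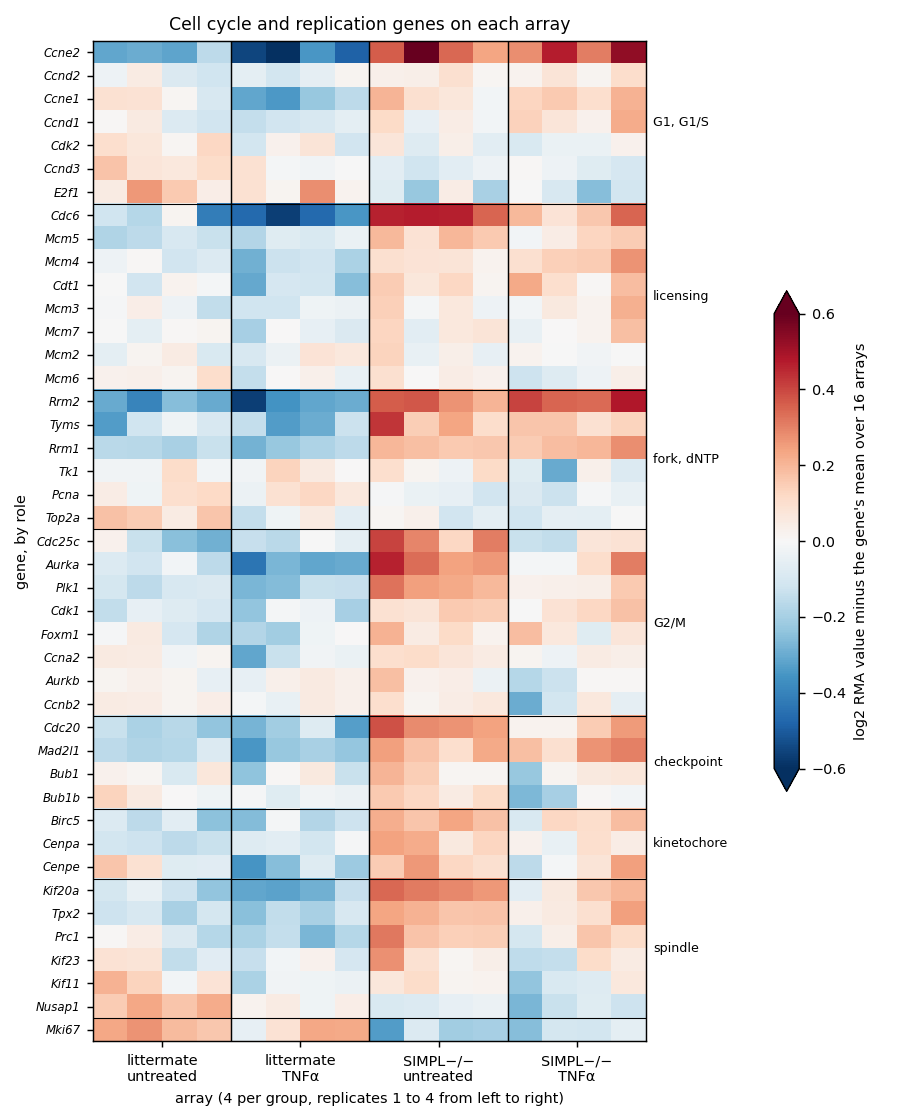
Log2 RMA value of each of the 43 genes (rows, by role) on each of the 16 arrays (columns, 4 per group), as the difference from the gene's mean over all arrays; red is higher and blue lower, and the colour scale ends at 0.6. Ccne2, Rrm2 and Cdc6 stand out as red in all SIMPL-/- arrays, and Mki67 and Nusap1 run the other way.

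Averaged over the 43 genes, the log2 level was 9.61 ± 0.02 (SD, n = 4) in untreated and 9.52 ± 0.05 in TNFα-treated littermate MEFs, and 9.76 ± 0.04 and 9.69 ± 0.06 in the corresponding SIMPL-/- MEFs. Single arrays moved many members together. Replicate 1 of the TNFα-treated littermate MEFs was the lowest of its group for 25 of the 43 genes, and replicate 1 of the TNFα-treated SIMPL-/- MEFs was also the lowest for 25. Replicate 4 of the latter group was the highest for 27 genes, as was replicate 1 of the untreated SIMPL-/- MEFs. The members are therefore not independent of each other within an array.

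Markers of other cell types moved with genotype. All 20 macrophage and myeloid genes measured were lower in SIMPL-/- MEFs in both comparisons, with median log2 differences of −2.33 and −2.43. Their mean level was 9.59 to 9.97 on the untreated littermate arrays and 7.52 to 7.69 on the untreated SIMPL-/- arrays, with Cd68 at 11.34 and 8.38 and Adgre1 at 9.66 and 7.14. The 10 fibroblast genes had mean levels of 12.76 to 12.86 and 12.24 to 12.36, above the median gene in both genotypes. Of these 10, 8 were lower in SIMPL-/- MEFs and 1, Thy1, was higher (log2 difference 0.73 without TNFα). All 4 adipocyte genes were higher in SIMPL-/- MEFs, with a median log2 difference of 1.63 without TNFα, as were 3 of 4 epithelial genes. Of 4 neural genes, 2 were higher and 1 lower without TNFα. The part of these differences in the results on genotype below was not tested, and a hybridisation batch that followed genotype cannot be told apart from it.

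**Figure D2:**
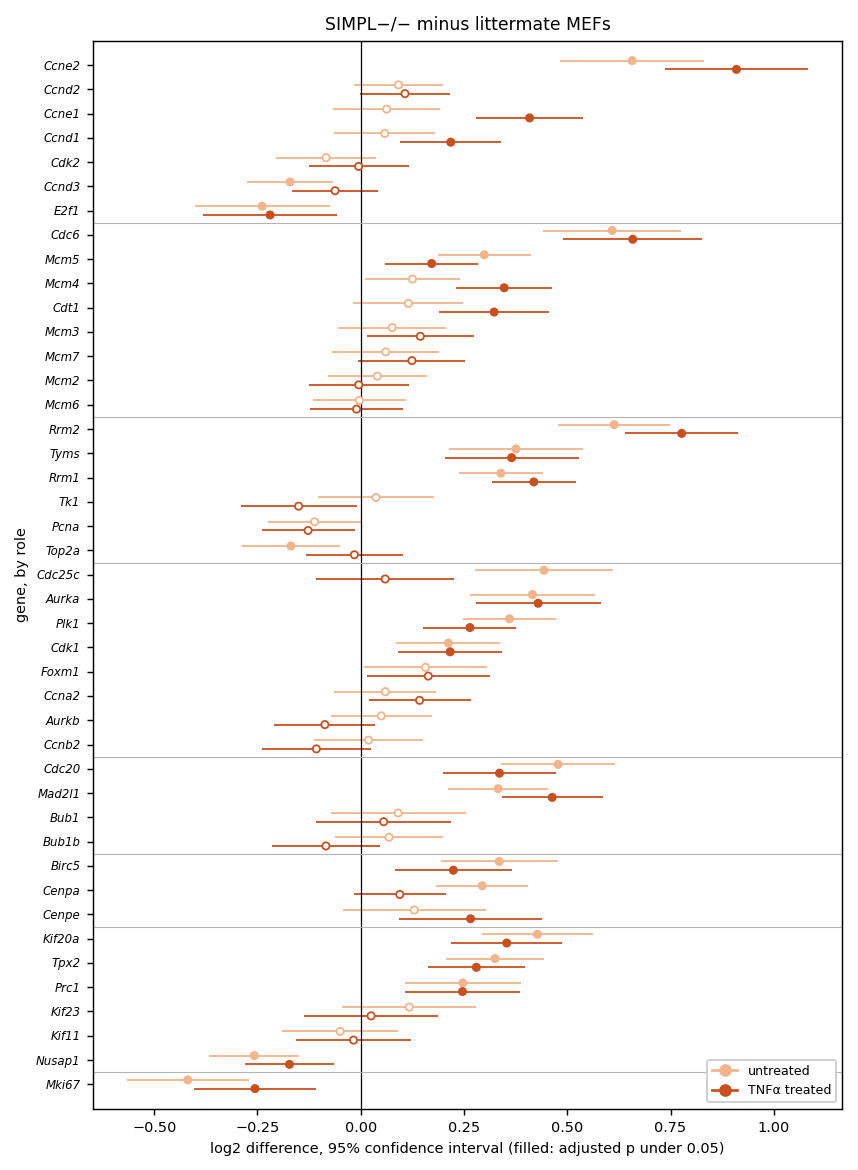
Log2 difference between SIMPL-/- and littermate MEFs for each of the 43 genes, without TNFα (light) and with TNFα (dark), with 95% confidence intervals from limma; filled points have an adjusted p under 0.05. Most of the called genes lie to the right of 0, led by Ccne2 at 0.66 and 0.91, and Mki67, E2f1 and Nusap1 lie to the left in both comparisons.

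Of the 7 genes of G1 and the G1/S switch, SIMPL-/- MEFs had 1 higher and 2 lower without TNFα, and 3 higher and 1 lower with it. Over all genes 23.3% were higher and 17.6% lower without TNFα, and 17.8% and 18.4% with it. Ccne2, a cyclin E that activates Cdk2 at the entry into S phase, showed the largest difference of all members. Its log2 values were 7.37, 7.38, 7.36 and 7.52 in untreated littermate MEFs and 8.04, 8.28, 8.03 and 7.91 in untreated SIMPL-/- MEFs. With TNFα they were 7.13, 7.02, 7.33 and 7.20 in littermate MEFs, and 7.96, 8.15, 7.99 and 8.21 in SIMPL-/- MEFs. Every SIMPL-/- array was above every littermate array, a difference of 1.58-fold without (log2 0.66, SE 0.0829, adjusted p = 3.68e-06) and 1.88-fold with TNFα (adjusted p = 4.43e-08).

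Ccne1, the other cyclin E, did not show this pattern in untreated cells. Its values were 9.99, 9.99, 9.91 and 9.80 in untreated littermate MEFs and 10.10, 10.00, 9.97 and 9.88 in untreated SIMPL-/- MEFs, and these overlapped (log2 difference 0.06, adjusted p = 0.432). After TNFα they were 9.59, 9.56, 9.67 and 9.74 in littermate MEFs, and 10.03, 10.06, 10.00 and 10.11 in SIMPL-/- MEFs, which did not overlap, and the gene was 1.33-fold higher in SIMPL-/- MEFs (adjusted p = 2.87e-05). Ccnd1, the mitogen-driven cyclin D, was likewise called higher after TNFα (0.22 log2, adjusted p = 0.00602) and not without it (0.06, adjusted p = 0.438). Ccnd2, another cyclin D, had log2 differences of 0.09 and 0.11 that did not pass the test.

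Ccnd3 and E2f1 were lower. Ccnd3 fell by 0.17 on the log2 scale in untreated SIMPL-/- MEFs (adjusted p = 0.0104), but not with quantile normalization (adjusted p = 0.0898). E2f1, the activator of S phase genes, had values of 8.77, 8.98, 8.88 and 8.76 in untreated littermate and 8.65, 8.50, 8.77 and 8.53 in untreated SIMPL-/- MEFs, which overlapped. Its difference was −0.24 without TNFα (SE 0.0777, adjusted p = 0.0202) and −0.22 with it (adjusted p = 0.0332). These E2f1 calls were weak. The methods' t-test gave adjusted p of 0.0638 and 0.0969. Without TNFα the call was lost when littermate replicate 2 (adjusted p = 0.0702) or SIMPL-/- replicate 2 or 4 (0.065 and 0.0607) was left out. With TNFα it was lost when littermate replicate 1 or 3 (0.0533 and 0.131) or SIMPL-/- replicate 2, 3 or 4 (0.0537, 0.115 and 0.0531) was left out.

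The products of the 8 origin licensing genes form the MCM helicase or load it in G1. Without TNFα 2 of them (25%) were higher in SIMPL-/- MEFs, near the 23.3% of all genes called higher. With TNFα 4 (50%) were higher, where 17.8% of all genes were, and none was lower in either comparison. Cdc6, which loads the helicase, had log2 values of 7.83, 7.77, 7.96 and 7.53 in untreated littermate and 8.41, 8.42, 8.41 and 8.29 in untreated SIMPL-/- MEFs. After TNFα the values were 7.48, 7.38, 7.48 and 7.59 in littermate MEFs, and 8.14, 8.03, 8.11 and 8.29 in SIMPL-/- MEFs. The genotypes did not overlap in either condition, with 1.52-fold higher levels without (SE 0.0799 on the log2 scale, adjusted p = 5.95e-06) and 1.58-fold higher levels with TNFα (adjusted p = 1.88e-06).

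The 6 subunits of the MCM helicase itself gave unequal estimates. Mcm5 had values of 9.50, 9.52, 9.58 and 9.55 in untreated littermate and 9.87, 9.76, 9.88 and 9.84 in untreated SIMPL-/- MEFs and was 1.23-fold higher in the latter (adjusted p = 0.000196). After TNFα its difference was 0.17 (adjusted p = 0.0165), which failed the test without replicate 1 of the TNFα-treated littermate arrays (adjusted p = 0.0574) or replicate 4 of the TNFα-treated SIMPL-/- arrays (adjusted p = 0.0516). Mcm4 was called after TNFα alone, at 1.27-fold (adjusted p = 4.57e-05), as was Cdt1, the partner of Cdc6 in loading, at 1.25-fold (adjusted p = 0.00044). Mcm2 had differences of 0.04 and −0.01 and Mcm6 of −0.0034 and −0.01, and neither these nor Mcm3 and Mcm7 passed the test. The estimates for the 6 subunits thus ran from −0.0034 to 0.30 in untreated cells.

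Of the 6 genes of nucleotide supply, the replication fork and DNA topology, 3 were higher in both comparisons. These were the ribonucleotide reductase subunits Rrm1 and Rrm2 and Tyms, which makes thymidylate. Over all genes 23.3% were called higher without and 17.8% with TNFα, and the share higher in both was not counted. Rrm2 had values of 10.09, 9.99, 10.13 and 10.09 in untreated littermate and 10.75, 10.76, 10.65 and 10.59 in untreated SIMPL-/- MEFs. With TNFα they were 9.82, 10.03, 10.08 and 10.09 in littermate MEFs, and 10.79, 10.74, 10.73 and 10.87 in SIMPL-/- MEFs. The gap between the genotypes was several times the spread within a group, at 1.53-fold (log2 0.61, SE 0.0647, adjusted p = 3.8e-07) and 1.71-fold (adjusted p = 1.33e-08).

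Rrm1 was 1.26-fold and 1.34-fold higher (adjusted p = 1.5e-05 and 9.49e-07), and Tyms 1.3-fold and 1.29-fold (adjusted p = 0.000746 and 0.000867). Pcna, the sliding clamp of the polymerases, had negative estimates of −0.11 and −0.13 that did not pass the test (adjusted p = 0.104 and 0.0728). Tk1, the salvage kinase for thymidine, was at 0.04 and −0.15 and was not called. Top2a, which untangles DNA before mitosis, was lower in untreated SIMPL-/- MEFs, with values of 10.44, 10.42, 10.31 and 10.43 against 10.28, 10.30, 10.15 and 10.20. That difference of −0.17 (adjusted p = 0.0228) failed the test after centring of the arrays (adjusted p = 0.0964) and without untreated littermate replicate 1 or 4 or SIMPL-/- replicate 3 or 4 (adjusted p from 0.0538 to 0.0773). After TNFα it was −0.02.

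**Figure D3:**
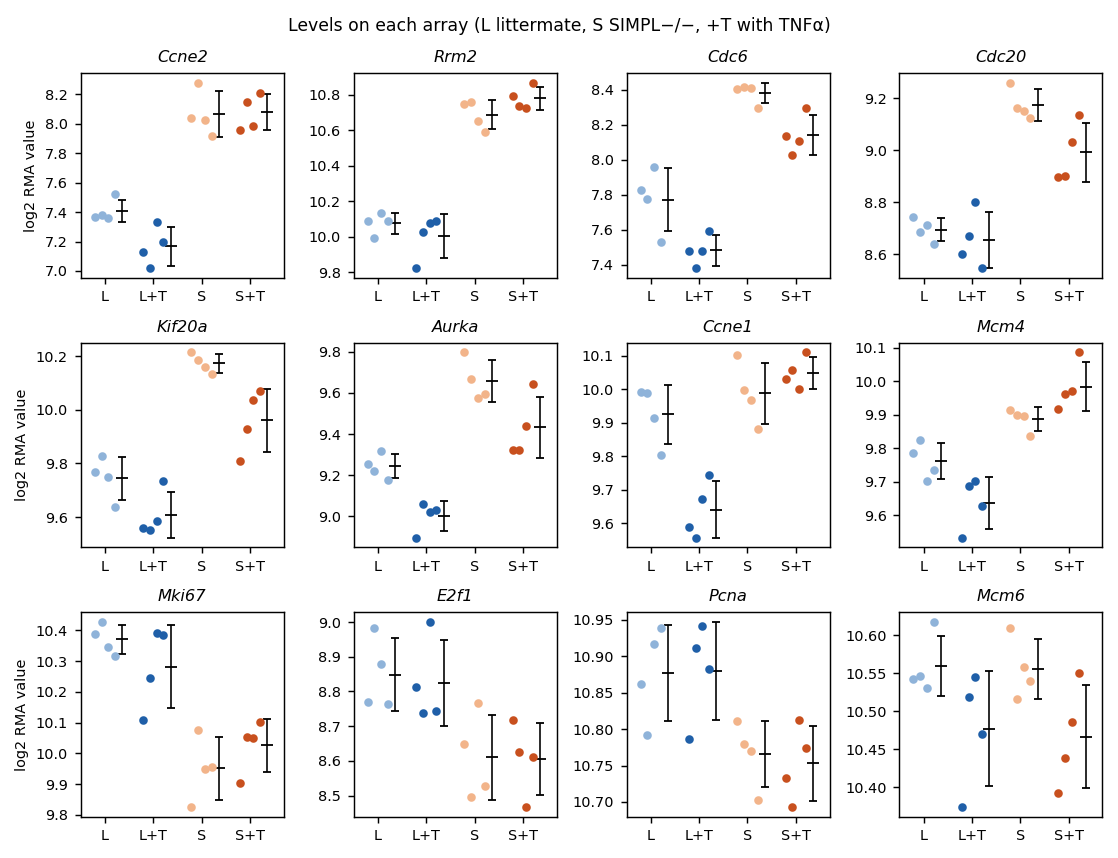
Log2 RMA values on each array for 12 of the genes (points, 4 per group), with a bar for the mean and SD at the side of each set; the vertical scale differs between panels. Littermate (L) and SIMPL-/- (S) arrays separate for Ccne2, Rrm2 and Cdc6 with and without TNFα (+T), for Ccne1 with TNFα alone, and not for Mcm6.

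Of the 8 measured cyclins and kinases of G2 and mitosis, 4 (50%) were higher in untreated SIMPL-/- MEFs and 3 (37.5%) after TNFα. Over all genes 23.3% and 17.8% were called higher. Aurka, the kinase of the spindle poles, had values of 9.25, 9.22, 9.32 and 9.18 in untreated littermate and 9.80, 9.67, 9.58 and 9.59 in untreated SIMPL-/- MEFs. It was 1.33-fold higher without and 1.35-fold higher with TNFα (adjusted p = 0.000137 and 8.52e-05). Plk1, which drives mitotic entry, had values of 10.22, 10.17, 10.23 and 10.23 in untreated littermate and 10.65, 10.57, 10.55 and 10.52 in untreated SIMPL-/- MEFs, a difference of 1.28-fold (SE 0.0537 on the log2 scale, adjusted p = 2.69e-05), and was 1.2-fold higher after TNFα (adjusted p = 0.0006). The arrays of the genotypes did not overlap for Aurka or Plk1 without TNFα.

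Cdk1, the mitotic kinase, was 1.16-fold higher in both comparisons (adjusted p = 0.00865 and 0.00753), though the methods' t-test gave an adjusted p of 0.0637 after TNFα. Cdc25c, the phosphatase that activates Cdk1, had values of 7.96, 7.80, 7.69 and 7.65 in untreated littermate and 8.34, 8.23, 8.06 and 8.24 in untreated SIMPL-/- MEFs and was 1.36-fold higher (adjusted p = 0.000203). After TNFα its difference was 0.06 (adjusted p = 0.609). Cyclins A2 and B2, Aurkb and Foxm1, the transcription factor of this phase, had differences from −0.11 to 0.16 and none passed the test in either comparison.

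In the spindle checkpoint, Cdc20 and Mad2l1 were higher in both comparisons and Bub1 and Bub1b in neither. Cdc20, the activator of the anaphase-promoting complex, had values of 8.74, 8.69, 8.71 and 8.64 in untreated littermate and 9.26, 9.16, 9.15 and 9.12 in untreated SIMPL-/- MEFs. The groups lay apart, at 1.39-fold (log2 0.48, SE 0.0653, adjusted p = 9.77e-06), and at 1.26-fold after TNFα (adjusted p = 0.000392). Mad2l1, which holds Cdc20 inactive until the chromosomes are attached, was 1.26-fold and 1.38-fold higher (adjusted p = 0.000149 and 2.8e-06). The kinase Bub1 had differences of 0.09 and 0.06 and Bub1b of 0.07 and −0.08.

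At the kinetochore, Birc5 (survivin, of the passenger complex) was 1.26-fold and 1.17-fold higher (adjusted p = 0.000587 and 0.0128), the latter not by the methods' t-test (adjusted p = 0.0883). Cenpa, the centromeric histone, had values of 9.46, 9.44, 9.41 and 9.44 in untreated littermate and 9.81, 9.79, 9.63 and 9.70 in untreated SIMPL-/- MEFs, which did not overlap (1.23-fold, adjusted p = 0.000212). After TNFα its difference of 0.09 did not pass the test (adjusted p = 0.183). The motor Cenpe was called after TNFα alone (0.27, adjusted p = 0.0158), a call that was lost without replicate 4 of the TNFα-treated SIMPL-/- arrays (adjusted p = 0.0645) or replicate 1 of the TNFα-treated littermate arrays (adjusted p = 0.0563).

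Of the 6 spindle genes, the motor Kif20a, the spindle assembly factor Tpx2 and the midzone bundler Prc1 were higher in both comparisons. The shares of all genes called higher were 23.3% without and 17.8% with TNFα. Kif20a had values of 9.77, 9.83, 9.75 and 9.64 in untreated littermate and 10.21, 10.18, 10.16 and 10.13 in untreated SIMPL-/- MEFs, with no overlap, and was 1.34-fold higher without and 1.28-fold higher with TNFα (adjusted p = 2.87e-05 and 0.000196). Tpx2 was 1.25-fold and 1.21-fold higher and Prc1 1.19-fold in both. Kif11, the motor that separates the spindle poles, had differences of −0.05 and −0.02, and Kif23 of 0.12 and 0.02, none of which passed the test. Nusap1, which bundles spindle microtubules, was lower by 1.2-fold without TNFα (adjusted p = 0.0006) and by 1.13-fold with it (adjusted p = 0.0129), the latter lost after centring (adjusted p = 0.133) or quantile normalization (adjusted p = 0.116).

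Mki67, the antigen most used to count cycling cells, ran against most of the list. Its log2 values were 10.39, 10.43, 10.35 and 10.32 in untreated littermate and 9.82, 10.07, 9.95 and 9.96 in untreated SIMPL-/- MEFs. With TNFα they were 10.11, 10.25, 10.39 and 10.38 in littermate MEFs, and 9.90, 10.05, 10.05 and 10.10 in SIMPL-/- MEFs. Every SIMPL-/- array was below every littermate array in each condition, by 1.34-fold without (log2 −0.42, SE 0.07, adjusted p = 9.58e-05) and 1.19-fold with TNFα (adjusted p = 0.00698). The difference with TNFα did not pass after centring of the arrays (adjusted p = 0.0532) or by the methods' t-test (adjusted p = 0.0604).

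TNFα itself moved few of the 43 genes. In littermate MEFs none was called higher and 2 lower, where 2.7% of all genes were called higher and 2.45% lower. In SIMPL-/- MEFs none was called higher and 1 lower, where 1.73% of all genes were called higher and 1.39% lower. At an unadjusted p under 0.05 there were 13 and 12 members, against 3314 and 3102 of all 19938 genes. Estimates leaned downwards, with medians of −0.08 in each genotype against 0.01 and −0.02 over all genes. Of the 43 estimates 7 and 12 were above 0, against 10717 and 8117 of the 19938 over all genes. Without replicate 1 of the TNFα-treated arrays, the members' medians were −0.04 in littermate and −0.05 in SIMPL-/- MEFs.

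**Figure D4:**
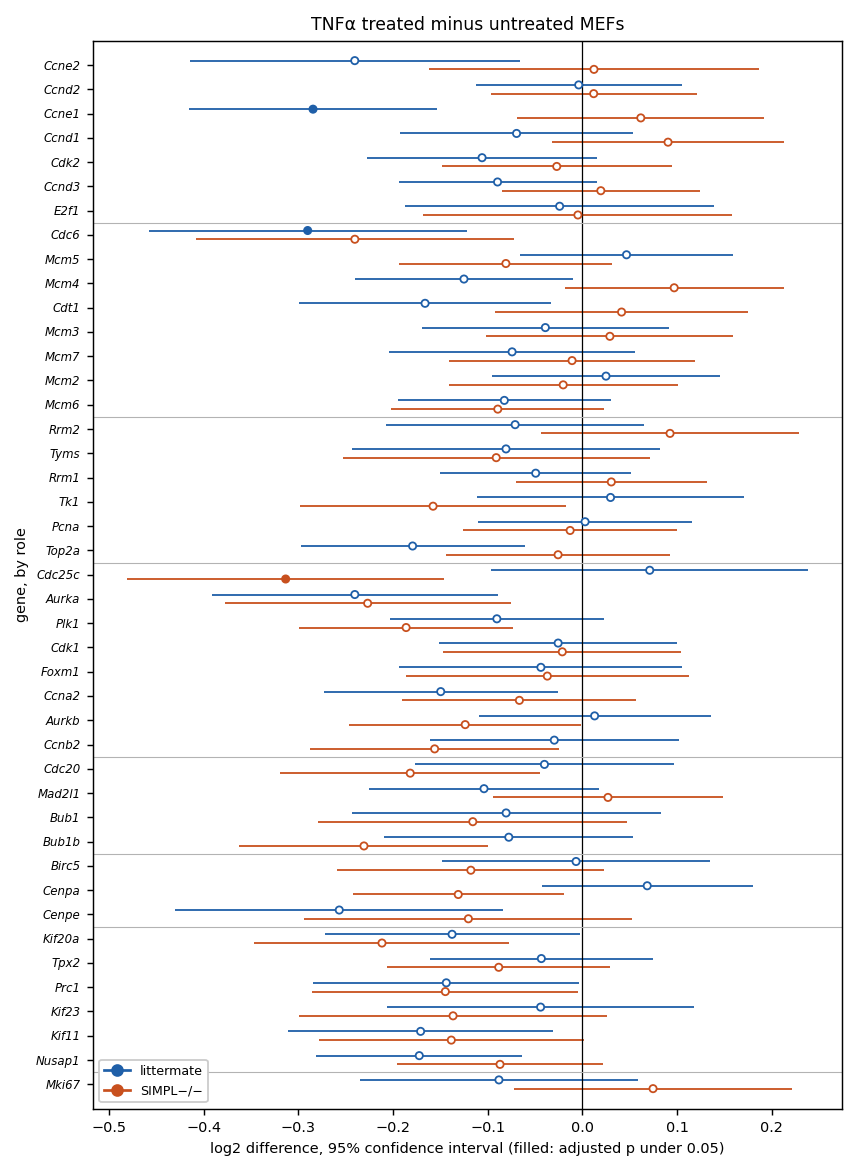
Log2 difference between TNFα-treated and untreated MEFs for each of the 43 genes in littermate (blue) and SIMPL-/- (orange) cells, with 95% confidence intervals from limma; filled points have an adjusted p under 0.05. Most points lie just left of 0, and Ccne1 and Cdc6 in littermate cells and Cdc25c in SIMPL-/- cells are the filled ones.

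Ccne1 fell by 0.28 on the log2 scale in littermate MEFs (SE 0.0621, adjusted p = 0.00889), and each treated array given above was below each untreated one. The methods' t-test gave it an adjusted p of 0.0851. In SIMPL-/- MEFs its estimate was 0.06 (adjusted p = 0.705). Cdc6 fell by 0.29 in littermate MEFs (SE 0.0799, adjusted p = 0.0403), with treated and untreated arrays that overlapped, and its estimate was −0.24 in SIMPL-/- MEFs (adjusted p = 0.129). The Cdc6 call was fragile, since it was lost when any of 9 single arrays was left out, namely replicates 1 to 3 of either littermate group, replicates 1 and 2 of the untreated and replicate 3 of the treated SIMPL-/- MEFs. The highest adjusted p was 0.139, without untreated littermate replicate 3.

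Cdc25c was the called gene in SIMPL-/- MEFs. Its values were 8.34, 8.23, 8.06 and 8.24 without, and 7.80, 7.79, 8.01 and 8.02 with TNFα, a fall by 0.31 (SE 0.0798, adjusted p = 0.0364) between groups that did not overlap. In littermate MEFs the values with TNFα were 7.80, 7.77, 7.93 and 7.88, a difference of 0.07 from the untreated arrays. The call was lost without SIMPL-/- untreated replicate 1, 2 or 4 or treated replicate 1 or 2 (adjusted p from 0.0761 to 0.138), and centring gave 0.0902. Aurka had estimates of −0.24 and −0.23 and Plk1 of −0.09 and −0.19, which did not pass the test.

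Of the other genes fixed for naming, Mki67 had TNFα responses of −0.09 in littermate and 0.07 in SIMPL-/- MEFs, Ccnd1 of −0.07 and 0.09, and E2f1 of −0.02 and −0.00. The responses of Mcm2, Mcm5 and Pcna ranged from −0.08 to 0.05. Those of Rrm2 were −0.07 and 0.09, and those of Tk1 0.03 and −0.16. Top2a stood at −0.18 and −0.03, and Cdk1 at −0.03 and −0.02. Cdc20, Bub1, Cenpa and Kif11 ranged from −0.18 to 0.07, and none of these responses was called. In size these were all below the calls of Ccne1, Cdc6 and Cdc25c.

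The responses of the genotypes were compared directly. None of the 43 genes was called, where 0.537% of all genes were called in either direction. An unadjusted p under 0.05 was found for 6 of the 43 and for 2577 of all 19938 genes. The smallest adjusted p belonged to Ccne1, whose response was 0.35 higher in SIMPL-/- MEFs (95% confidence interval 0.16 to 0.53, adjusted p = 0.0983). It passed the test when dim genes were left out (adjusted p = 0.0338), with trend and robust moderation (0.0195) and with array weights (0.049), and ranged from 0.068 to 0.207 with single arrays left out. The response of Cdc25c was −0.38 in the same direction of subtraction (adjusted p = 0.161). For Mki67 the difference was 0.16 and for Rrm2 0.16, with adjusted p of 0.5 and 0.466. Genes called between the genotypes in 1 condition alone, such as Mcm4, Cdt1, Cenpa and Top2a, are therefore not shown to differ in their response.

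Other genes of the pathway were taken from lists outside the 44. Without TNFα, 39 of the 120 measured were higher in SIMPL-/- MEFs and 15 lower, and with TNFα 50 were higher and 14 lower, to be read against the same shares of all genes given above. The largest group was that of 57 other mitotic genes, of which 23 were higher and 6 lower without TNFα and 24 and 6 with it. Gtse1, a spindle and p53 regulator, had values of 8.34, 8.27, 8.18 and 8.17 in untreated littermate and 8.92, 8.86, 8.77 and 8.83 in untreated SIMPL-/- MEFs, 1.53-fold higher (adjusted p = 1.55e-06). The checkpoint kinase Ttk was 1.4-fold and 1.67-fold higher, Cep55, which acts in abscission, 1.39-fold without TNFα, and the G1/S phosphatase Cdc25a 1.57-fold with it. In the other condition their means were also higher in SIMPL-/- than in littermate MEFs. Cep55 was at 8.14 against 7.59 with TNFα, and Cdc25a at 8.97 against 8.74 without it.

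Of 15 origin firing genes, 4 (26.7%) were higher without and 7 (46.7%) with TNFα, where 23.3% and 17.8% of all genes were, and none was lower. Orc1, a subunit of the origin recognition complex, had values of 6.09, 6.14, 6.23 and 6.29 in untreated littermate and 6.54, 6.55, 6.47 and 6.54 in untreated SIMPL-/- MEFs, and of 5.96, 6.02, 5.97 and 5.85 in littermate cells, against 6.64, 6.75, 6.53 and 6.81 in SIMPL-/- cells, after TNFα. It was 1.26-fold and 1.67-fold higher (adjusted p = 0.000425 and 2.87e-08), with no overlap in either. Orc6 was 1.27-fold and 1.3-fold higher, the helicase cofactor Cdc45 1.29-fold without TNFα and Orc2 1.39-fold with it. With TNFα the mean of Cdc45 was 8.34 in SIMPL-/- and 8.05 in littermate MEFs. Without TNFα that of Orc2 was 9.09 and 8.96. Of 23 polymerase and fork genes, 7 were higher and 3 lower without TNFα and 10 and 1 with it. Without TNFα these were 30.4% and 13%, against 23.3% and 17.6% of all genes. With TNFα they were 43.5% and 4.35%, against 17.8% and 18.4%. Examples of the higher ones were Dut, which removes dUTP, at 1.28-fold and 1.27-fold, the polymerase subunit Pole2 at 1.25-fold and 1.37-fold, and the flap nuclease Fen1 at 1.19-fold and 1.28-fold.

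**Figure D5:**
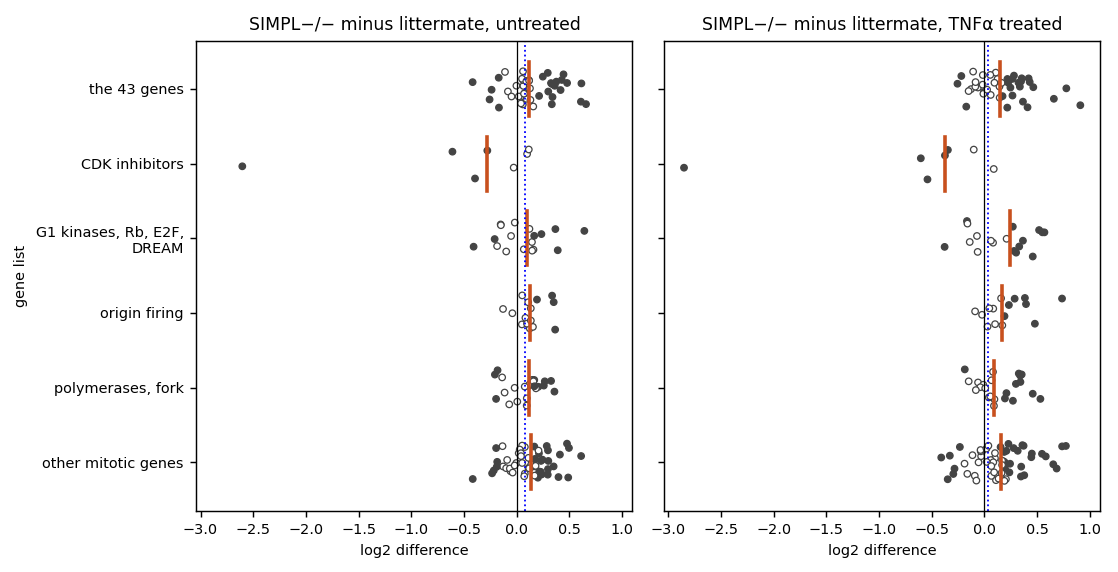
Log2 difference between SIMPL-/- and littermate MEFs without (left) and with (right) TNFα for the 43 genes and for 5 other lists of the pathway, 1 point per gene; filled points have an adjusted p under 0.05, orange bars are list medians and the dotted line is the median of all genes. The CDK inhibitors lie mostly left of 0, with Cdkn1c at −2.60 and −2.85. The medians of the other lists lie right of 0, as do those of all genes, at 0.07 and 0.03.

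The inhibitors of the cyclin kinases were mostly lower. Of 7 measured, 4 were lower without and 5 with TNFα, and none was higher. Over all genes 17.6% were called lower without and 18.4% with TNFα. In untreated cells Cdkn2a had mean levels of 7.56 in littermate and 7.66 in SIMPL-/- MEFs, and Cdkn2b of 9.43 and 9.54. Cdkn1c (p57), an imprinted inhibitor active in embryonic tissue, had values of 11.90, 11.95, 11.95 and 11.94 in untreated littermate and 9.16, 9.27, 9.51 and 9.39 in untreated SIMPL-/- MEFs, 6.08-fold lower (adjusted p = 3.82e-14). Cdkn1b (p27), which restrains cyclin E kinases, had values of 9.81, 9.74, 9.78 and 9.68 in untreated littermate cells, against 9.10, 9.14, 9.09 and 9.23 in SIMPL-/- cells, and was 1.53-fold lower (adjusted p = 1.34e-07). Cdkn2c (p18), an inhibitor of the cyclin D kinases, was 1.32-fold lower without and 1.45-fold lower with TNFα (adjusted p = 6.25e-06 and 9.82e-08). The groups did not overlap for any of these 3 genes. Cdkn1a was not analysed here, since its probe set is listed with several genes.

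Of 18 G1 kinases and Rb, E2F and DREAM genes, 5 were higher and 2 lower without TNFα and 9 and 2 with it. The higher ones were 27.8% and 50%, against 23.3% and 17.8% of all genes. Myc, which drives G1 progression, was 1.56-fold higher in untreated SIMPL-/- MEFs, with values of 9.30, 9.31, 9.39 and 9.34 against 10.11, 9.93, 9.90 and 9.96 (adjusted p = 6.44e-05). The repressor E2f7 was 1.29-fold and 1.43-fold higher, and E2f3 and E2f6 were 1.48-fold and 1.46-fold higher after TNFα. Without TNFα the mean of E2f3 was 8.32 in SIMPL-/- and 8.17 in littermate MEFs, and that of E2f6 was 9.31 and 8.93. Rbl2 (p130), the pocket protein of DREAM in resting cells, was 1.33-fold lower without TNFα (adjusted p = 0.000423). With TNFα its mean was 8.78 in SIMPL-/- and 9.16 in littermate MEFs, and that of Myc was 10.43 and 10.13.

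TNFα moved some of these genes. In littermate MEFs 2 of the 120 were higher and 14 lower, where 2.7% of all genes were called higher and 2.45% lower. In SIMPL-/- MEFs 2 were higher and 10 lower, where the shares of all genes were 1.73% and 1.39%. Of the 57 mitotic genes 9 were lower in each genotype, to be read against the same 2.45% and 1.39%, among them Ccnf, a cyclin of the SCF ubiquitin ligase, which fell by 0.44 in littermate (adjusted p = 0.00116) and by 0.42 in SIMPL-/- MEFs (adjusted p = 0.00291). Fbxo5, an inhibitor of the anaphase-promoting complex, fell by 0.50 and the cohesin protector Sgo1 by 0.47 in littermate MEFs, and Cdca2 fell by 0.39 and the phosphatase Cdc25b by 0.26 in SIMPL-/- MEFs. By the methods' t-test these 4 genes, Ccnf in SIMPL-/- and Myc in littermate MEFs did not pass. Cdkn1b fell by 0.36 in littermate and by 0.35 in SIMPL-/- MEFs (adjusted p = 0.000727 and 0.00142). Myc rose by 0.79 in littermate (adjusted p = 4.65e-05) and by 0.45 in SIMPL-/- MEFs (adjusted p = 0.018). The second of these Myc calls was lost without SIMPL-/- untreated replicate 3 or 4 or treated replicate 2 or 4 (adjusted p from 0.0536 to 0.0607).

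Cdkn2b (p15), an inhibitor of the cyclin D kinases, was the single gene of the 120 whose responses differed between the genotypes, and the difference was picked out after its values were seen. This is 0.833% of the 120, against 0.537% of all genes called in either direction. The count is therefore not read as a result about the lists. In littermate MEFs the values of Cdkn2b were 9.48, 9.46, 9.45 and 9.31 without and 9.92, 10.02, 9.95 and 10.01 with TNFα, a rise of 1.46-fold (adjusted p = 4.83e-06) between groups that did not overlap. In SIMPL-/- MEFs they were 9.62, 9.47, 9.58 and 9.49 without and 9.56, 9.66, 9.68 and 9.49 with it, which overlapped (log2 0.06, adjusted p = 0.719). The responses differed by −0.49 (95% confidence interval −0.67 to −0.31, adjusted p = 0.00805). The mean of the myeloid markers was 9.68 to 10.13 on the TNFα-treated littermate arrays and 7.52 to 7.64 on the treated SIMPL-/- arrays, and its part in this result was not tested.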

How the data were processed

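The 44 genes, the other pathway lists, the markers and the motifs were chosen with earlier results of these data known. The deposited log2 values, from 2.41 to 14.9, were made by the authors with RMA in Partek, per the labels; versions are not given in the sources used here. Microarray Suite is also named in the study's methods, with correction for the false discovery rate. RMA brings arrays to a like distribution (their medians ran from 6.667 to 6.764), so a shift of the whole transcriptome would not be seen. Of 28853 probe sets, 21789 are annotated with 1 gene symbol, 1621 with several (not used), and 5443 are unnamed here. The probe set with the highest mean stood for each of 19938 genes. Arrays were grouped by their titles, and no pair of a group correlated below 0.995.

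A mean per group was fitted with limma 3.58.1 in R 4.3.3 (lmFit, eBayes; 12 residual and 6.19 prior degrees of freedom), with 5 contrasts, two-sided tests and Benjamini-Hochberg adjustment over all genes. No filter was applied. The script was tested on simulated data. The rule for named genes took Irak1bp1, the 10 called members with the largest difference per comparison, a fixed set of members (Mki67, Ccnd1, Ccne1, E2f1, Mcm2, Mcm5, Pcna, Rrm2, Tk1, Top2a, Cdk1, Plk1, Cdc20, Bub1, Cenpa and Kif11, with Ccnb1 not measured), and the 3 genes of smallest adjusted p per other list and comparison, of which the text gives some; other members are named to complete their groups. Alternatives were centring, quantile normalization, leaving out dim genes, averaging probe sets, trend and robust moderation, array weights, fitting the compared arrays only, a t-test as in the methods (called the methods' t-test), a rule of 1.5-fold and p under 0.001, and leaving out each array. The study's results state that rule for genes induced by TNFα in littermate MEFs. Here it was applied with limma's unadjusted p in every comparison. Promoters came from RefSeq (GRCm38.p6), for 33 of the 43 genes. Figures used matplotlib 3.10.9.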

Additional observations from a re-analysis of the deposited data

Results flagged for a closer look

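Among 25 named members in 4 groups, 6 of 100 sets of arrays had an array whose gap to the nearest other, divided by the range of the group, passed Dixon's 95% critical value, where chance gives about 1 in 20. Bub1 had a ratio of 0.8295 in TNFα-treated SIMPL-/- MEFs, where replicate 1 was at 9.233 and the nearest at 9.48. For Ccne2 the ratio was 0.884 in untreated littermate MEFs (replicate 4 at 7.522, nearest 7.381). Cdc6 had 0.918 in untreated SIMPL-/- MEFs, with replicate 4 at 8.293 and the nearest at 8.406. Kif11 had 0.917 in TNFα-treated littermate MEFs, with replicate 1 at 9.1 and the nearest at 9.255. Plk1 had 0.941 in TNFα-treated SIMPL-/- MEFs, with replicate 4 at 10.48 and the nearest at 10.36. Tk1 had 0.977 in untreated littermate MEFs, with replicate 3 at 9.175 and the nearest at 9.047.

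A further pair of genes stood out in the responses to TNFα of the genotypes. Mcm4 moved in opposite directions, with every treated littermate array below every untreated one and every treated SIMPL-/- array above, though barely. In littermate MEFs the highest treated array was at 9.70142 and the lowest untreated at 9.70223. In SIMPL-/- MEFs the lowest treated array was at 9.9161 and the highest untreated at 9.91523. The responses of Mcm4 differed by 0.222, which did not pass the test (limma, adjusted p = 0.244). Cdkn2b differed by -0.489 (limma, adjusted p = 0.00805).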

How the results depend on the processing

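Of 22 genotype calls without TNFα, 19 were kept in every alternative other than the 1.5-fold rule, of 23 with TNFα 16, and of the 3 calls on TNFα responses none. Members higher in untreated SIMPL-/- MEFs numbered 17, 3 by the 1.5-fold rule; members lower numbered 5, 3 with quantile normalization, 0 by the 1.5-fold rule and 3 to 5 with single arrays left out. With TNFα, 20 were higher, 3 by the 1.5-fold rule and 18 to 22 with single arrays left out (18 without replicate 1 of the treated littermate arrays), and 26 were higher and 0 lower after centring, 23 and 1 after quantile normalization. The 3 lower ones became 5 without dim genes or with array weights, 1 by the t-test, 0 by the 1.5-fold rule and 2 to 4 with single arrays left out. The median difference of the members, 0.144, became 0.2153 after centring, which also raised the median over all genes by 0.0711. The 2 lower responses in littermate MEFs became 1 with centring or the t-test, 4 with quantile normalization, 6 without dim genes, 5 with trend and robust moderation, 0 by the 1.5-fold rule and 1 to 3 with single arrays left out. The 1 in SIMPL-/- MEFs became 0 with centring, the compared arrays alone, the t-test or the 1.5-fold rule, 5 with quantile normalization, without dim genes or with trend and robust moderation, 6 with array weights, and 0 to 4 with single arrays left out (4 without replicate 4 of the treated arrays). The difference between responses gave 1 gene, not 0, without dim genes, with trend and robust moderation and with array weights. Top2a went from −0.17 to 0.01225 in untreated MEFs when its probe sets were averaged, the second being at a mean of 3.17, near the low end of the table. The cause of the other changes was not tested. Of 176 results on single genes, 1 was reversed, that of Top2a. No paired analysis was possible because the replicate numbers are names in accession order and no source pairs arrays. Signal over background is not in the table used here, and differences under 0.1 lay within the intervals of the members.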
